A study of Mus musculus with 24 samples.

Results

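The comparison described here follows the otocyst of control mouse embryos over the day between E10.25 and E11.25 (E, embryonic day). Of 24 samples in the series, 12 are control pools, 11 of these have a column of counts, and 10 were compared. Each sample is RNA from otocyst epithelia dissected out of the embryos of a single pregnant female and pooled by genotype, so the replicate is a litter. All control embryos were Rosa26rtTA/+: they carry the doxycycline-dependent transactivator rtTA from the broadly expressed Rosa26 locus, and they lack the Tg(tetO-s(dn)Fgfr2b) transgene of their experimental littermates (R2b), which makes a secreted, dominant-negative FGFR2b. All females were given doxycycline, by an injection of 1.5 mg/kg and then chow with 200 mg/kg, so no pool here is free of the drug.

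The E11.25 group was exposed from E10.25 for 24 hours and is used with 3 litters, numbered 2, 3 and 4. The first E10.25 group was exposed from E9.25 for 24 hours and has 4 litters (called E9.25+24h). The other E10.25 group was exposed from E9.75 for 12 hours and has 3 litters (called E9.75+12h). It served to check the direction of each difference. The ages of the groups follow from these labels, as the start of exposure plus its length. The request number under which libraries were sequenced changes with the exposure, so stage and sequencing request cannot be told apart. For this reason changes are described mainly where the E11.25 pools differed in the same direction from both E10.25 groups, by at least 2-fold. Both comparisons share the E11.25 libraries and are not independent of each other.

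The E11.25 libraries were chosen by their counts of Ighg1, an immunoglobulin constant-region gene whose reads come from the secreted transgene and should be near 0 in a control. Litter 1 had 15754 Ighg1 counts in the pool labelled as control, against its label, and was left out. Of the litters kept, litter 2 had 28 counts and litter 4 had 16, while litter 3 had 5106. Litter 3 thus holds transgene reads as well, although the rule keeps it, and values without it are given beside the results. Fgfr2, whose counts include reads of the transgene, was at 398 CPM (counts of a gene per 1000000 counts of the library, with TMM-scaled library totals) in litter 3, against 227 and 205 CPM in litters 2 and 4. The E10.25 controls had 1 to 36 Ighg1 counts and 125 to 162 CPM of Fgfr2. Because Ighg1 selected the libraries, no test result is given for either gene, although neither was removed by name before the fit over all genes. Man1a, picked after its values were seen, was also out of line in litter 3, at 66.8 CPM against 19.8 and 22.2 CPM in litters 2 and 4.

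The 10 libraries held 18.7 to 24.8 M counts each. Mitochondrial transcripts made up 1.88% to 2.24% of counts at E11.25. The share was 1.53% to 1.70% in the E9.25+24h pools, and 4.36% to 6.69% in the E9.75+12h pools. The epithelial and otic identity of the pools was clear in every group. The summed level of 14 otic identity genes, among them Pax2, Sox10, Oc90 and Epcam, was 5592 to 7209 CPM at E11.25, 2793 to 4273 CPM at E9.25+24h and 4930 to 5073 CPM at E9.75+12h. Oc90 alone was at 2824 to 4186 CPM, 649 to 1574 CPM and 723 to 1151 CPM in the same order. The higher sum at E11.25 thus holds the rise of Oc90 described below and does not measure otic content. Other tissues were present in amounts that differed by litter. Litter 4 of E9.25+24h had the highest sums of blood (1631 CPM), mesenchyme (1476 CPM), endothelium (304 CPM) and macrophage (28.1 CPM) markers, and litter 3 of that group had the lowest sums of the first 3 within it, at 9.67, 91.8 and 15.8 CPM. Litters 2 and 3 of E11.25 held surface ectoderm transcripts. Trp63 was at 49.9, 34.0 and 1.13 CPM in litters 2, 3 and 4, and at most 1.29 CPM in any E10.25 library. Since these are bulk samples, fewer cells of a type and less RNA per cell cannot be told apart.

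**Figure D1:**
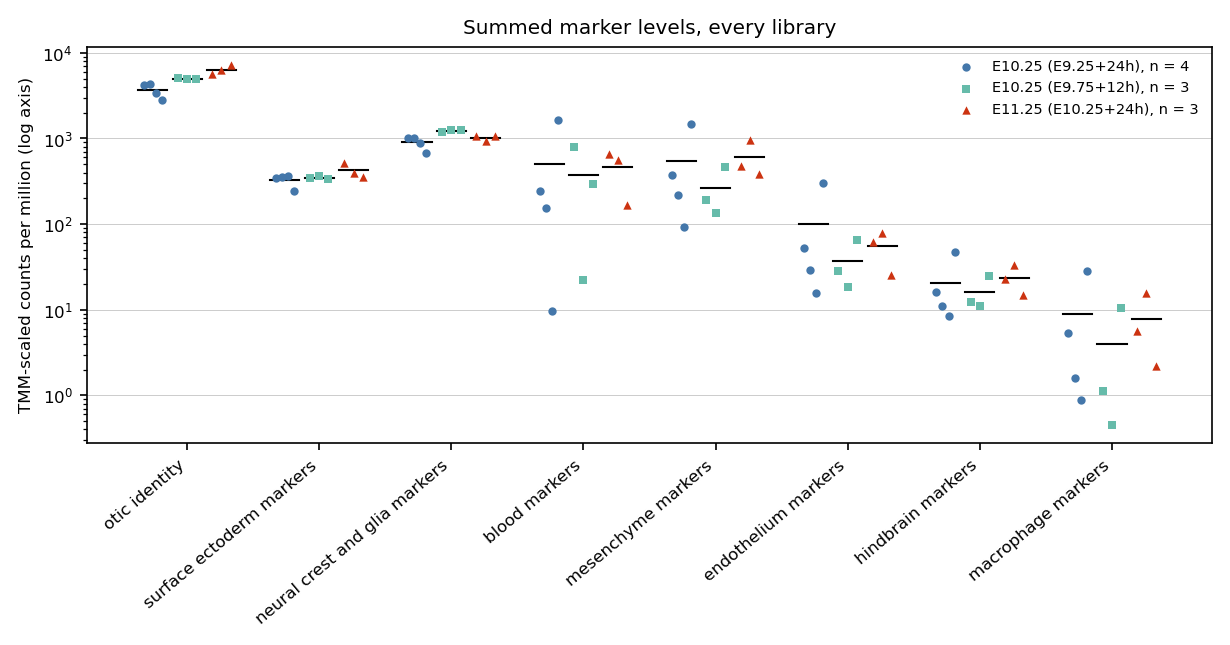
Summed TMM-scaled CPM (log axis) of the otic identity genes and of marker genes of other cell types, 1 point per library and a bar at each group's mean. The otic sum is 2793 CPM or more in each of the 10 libraries, while blood, mesenchyme and endothelium sums vary within each group and are highest in 1 E9.25+24h library.

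As background, the otocyst is a closed vesicle of epithelium that forms the whole membranous labyrinth. In the period covered here its dorsal wall grows out into the endolymphatic duct and the canal pouches, its ventral tip grows out into the cochlear duct, and neuroblasts leave its anteroventral floor to form the cochleovestibular ganglion. Timing in many embryonic tissues is set in part by the RNA-binding proteins LIN28A and LIN28B, which block the maturation of let-7 microRNAs. Let-7 in turn represses messages with matching sites, LIN28 messages among them, so the levels of both fall and rise in opposite ways as tissues mature.

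The RNA was selected by oligo(dT), so mature microRNAs were not measured. Their sequences and their sites are shown because a group of known let-7 targets was lower at E11.25 than in both E10.25 groups. Members of the let-7 family and the related miR-98 share the seed (bases 2 to 8, in capitals), and a second family, miR-125, which is also known to target Lin28a, has another. The sequences are those of RefSeq (GRCm38.p6).
let-7a-5p: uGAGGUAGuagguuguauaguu
let-7b-5p: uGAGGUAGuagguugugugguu
let-7c-5p: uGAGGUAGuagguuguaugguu
let-7e-5p: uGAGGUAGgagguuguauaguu
miR-98-5p: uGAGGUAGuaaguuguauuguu
miR-125b-5p: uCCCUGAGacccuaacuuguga

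The match to the let-7 seed in a message is CTACCTC, read on the sense strand. In the longest annotated 3′ untranslated region of each gene (GENCODE M21, GRCm38), the first such match and its neighbours read as follows, with the match in capitals.
Lin28a: gcacagcctgttgaaCTACCTCatttt
Lin28b: acccgggcgggaagtCTACCTCatgca
Trim71: aacattgcctaagtcCTACCTCagctt
Hmga2: gccgacattcaatttCTACCTCagcat
These windows start at base 897, 24, 154 and 46 of the 3′ untranslated region. The same region held 2 matches in Lin28a and 4 each in Lin28b, Trim71 and Hmga2. A match is a run of letters and was not shown to be a site of repression.

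Over all 15322 genes tested, E11.25 differed from E9.25+24h at 4409 genes (28.8%), with 2015 higher (13.2%) and 2394 lower (15.6%), at an adjusted p (FDR) under 0.05 in edgeR's quasi-likelihood test. Against E9.75+12h, 6355 genes differed (41.5%), 3407 higher (22.2%) and 2948 lower (19.2%). Which direction was the more frequent in the second comparison depends on the scaling, with 2964 higher and 3297 lower under median-of-ratios size factors. These shares carry little information on stage, because the 2 E10.25 groups, of the same age, differed from each other at 5619 genes (36.7%). Genes called in the same direction against both E10.25 groups numbered 1016 higher (6.63%) and 1172 lower (7.65%). A large change, with an FDR under 0.05 and at least a 2-fold difference against each, was met by 385 genes (2.51%), of which 277 were higher (1.81%) and 108 lower (0.705%). Every E11.25 library lay above all 7 E10.25 libraries at 240 of the 277, and below all 7 at 105 of the 108. These genes were selected by their difference in the same libraries, so the lack of overlap is no further support.

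The same rule, turned on the E9.75+12h group, found 388 genes (2.53%) that set it apart from both other groups, and 72 genes (0.47%) for E9.25+24h. The number of genes therefore does not mark out E11.25. Of the 385 genes of E11.25, 354 (91.9%) are protein-coding and 11 are pseudogenes. This share is near that of all genes, since 13732 of the 15322 genes tested are protein-coding. Of the 388 genes of E9.75+12h, 174 (44.8%) are protein-coding and 144 are pseudogenes. Of the 72 genes of E9.25+24h, 47 (65.3%) are protein-coding. How the authors counted reads shared by a gene and its pseudogene copies is not known here, so the pseudogene counts are uncertain. The part of the counting step in these numbers was not tested.

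**Figure D2:**
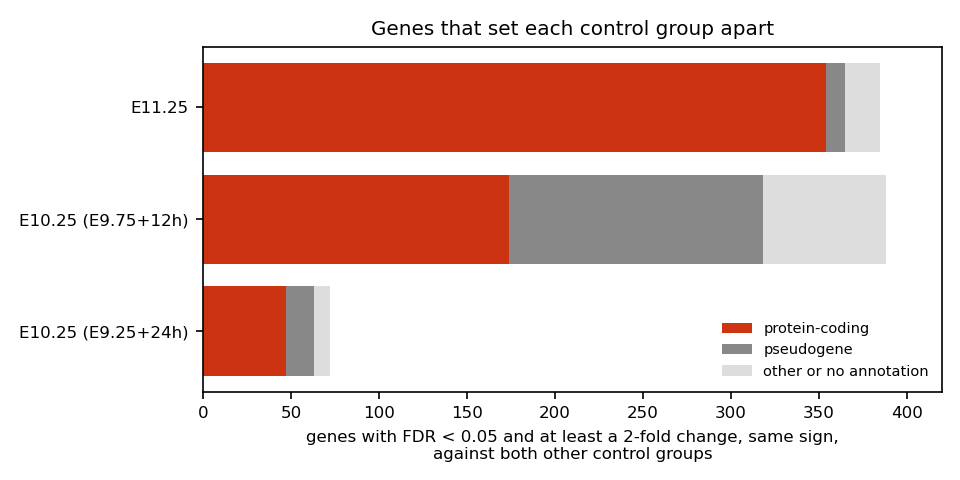
Number of genes with an FDR under 0.05 and at least a 2-fold change in the same direction against both other control groups, split by gene type, for each of the 3 groups. E11.25 and E9.75+12h have bars of nearly equal length (385 and 388 genes), and the E11.25 bar is 91.9% protein-coding where that of E9.75+12h is 44.8%. Of all 15322 genes tested, 13732 are protein-coding.

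The 277 rises had a median log2 fold change of 1.66 against E9.25+24h and 1.65 against E9.75+12h, and 56 of them rose at least 4-fold against both. The 108 falls had medians of -1.41 and -1.59, with 15 at least 4-fold down. Libraries within a group were not alike along this axis. Of the 3 E11.25 litters, litter 2 was the lowest at 195 of the 277 rises and the highest at 79 of the 108 falls. Leaving out litter 3 of E11.25, which holds transgene reads, lowered the count from 385 to 229 genes (160 higher, 69 lower). Without litter 4, which had 16 Ighg1 counts, it was 273 (196 higher, 77 lower), and without litter 2 it was 419. Over the 10 fits that each leave out 1 library, 168 of the 385 genes passed every time, 119 of them higher and 49 lower.

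The genes that keep embryonic tissue in an early state were lower at E11.25. Of 14 tested genes of a heterochronic list (the Lin28 genes, known let-7 targets and early embryonic regulators), 11 fell against E9.25+24h and 13 against E9.75+12h, with none higher, where 15.6% and 19.2% of all genes were lower. The median log2 fold change of the list was -0.90 and -0.86, against -0.01 and 0.06 over all genes, and between the 2 E10.25 groups it was -0.07. The falls numbered 10 and 10 without litter 3 of E11.25. The 5 members Lin28a, Lin28b, Trim71, Nr6a1 and Sall4 made a large change against both groups.

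Lin28a (ENSMUSG00000050966, chr4:134003330-134018841, minus strand) encodes the RNA-binding protein that blocks let-7 maturation in stem cells. Its level was 20.5, 7.65 and 7.70 CPM in E11.25 litters 2, 3 and 4. It was 62.2, 68.7, 199.6 and 85.9 CPM in the 4 litters of E9.25+24h, and 51.8, 80.4 and 56.7 CPM in the 3 of E9.75+12h. All 3 E11.25 libraries thus lay below the lowest E10.25 library, and litter 2 was the nearest to it. The log2 fold change was -3.13 (SE 0.50, FDR = 0.00199) against E9.25+24h and -2.41 (SE 0.50, FDR = 0.00325) against E9.75+12h. Leaving out litter 3 of E11.25 gave -2.89 and -2.16.

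Its paralog Lin28b (ENSMUSG00000063804, chr10:45376620-45486395, minus strand) had 79.3, 59.3 and 60.8 CPM at E11.25. The E9.25+24h litters had 164.1, 163.7, 270.6 and 168.1 CPM and the E9.75+12h litters 193.4, 224.1 and 173.6 CPM, again without overlap. Lin28b fell by 1.53 on the log2 scale (SE 0.19, FDR = 0.000986) and by 1.57 (SE 0.20, FDR = 0.000169). Trim71, a let-7 target known in worms as lin-41 and coding for an RNA-binding ubiquitin ligase, was at 50.7, 29.7 and 31.1 CPM against 79.4 to 158.4 CPM in the 7 E10.25 libraries (log2 -1.66 and -1.24). Nr6a1, an orphan nuclear receptor of the early embryo, was at 23.1, 15.7 and 15.9 CPM against 48.4 to 123.7 CPM (log2 -2.0 and -1.89). Sall4, a zinc-finger factor of pluripotent cells, was at 41.3, 20.9 and 23.1 CPM against 54.3 to 69.0 CPM (log2 -1.07 and -1.15). In litter 3 of E9.25+24h, Lin28a, Lin28b, Trim71 and Nr6a1 each had their highest value of the 10 libraries, and this was the library with the least mesenchyme, blood and endothelium signal of its group.

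Other members moved less or in only 1 comparison. Igf2bp2, which binds messages in growing embryonic tissue, was 310 ± 18.7 CPM at E11.25, 377 ± 17.0 CPM at E9.25+24h and 595 ± 27.7 CPM at E9.75+12h (SD, n = 3, 4 and 3), and fell against both. Hmga2, a chromatin protein that is a well-known let-7 target, was 523 ± 36.3 CPM at E11.25 and 509 ± 50.8 CPM at E9.25+24h, which did not differ beyond their spread (FDR = 0.766). Against the 839 ± 59.0 CPM of E9.75+12h it was lower (log2 -0.68, FDR = 0.000196). Mycn passed the test in neither comparison, with log2 differences of -0.10 and -0.07.

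The search for let-7 seed matches was then run over all protein-coding genes. A match was present in the 3′ untranslated region of 21 of the 91 protein-coding genes with a large fall (23.1%), of 22 of the 263 with a large rise (8.37%), and of 1460 of the 13691 protein-coding genes tested that have such a region (10.7%). Median lengths of these regions were 1192, 1306 and 1213 bases, and the density of matches was 0.235, 0.0494 and 0.0725 per kb. In the heterochronic list 11 of 14 genes had a match (78.6%), which is no independent result since let-7 targets were chosen for it. Of the 86 falls outside that list, 16 had a match (18.6%), among them Fignl2 with 3, and Igdcc3 and Prtg with 2 each. The miR-125 seed match CTCAGGG was present in 26.4% of the falls, 15.2% of the rises and 15.9% of all. These shares describe the letters in the annotated regions and were not tested.

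**Figure D3:**
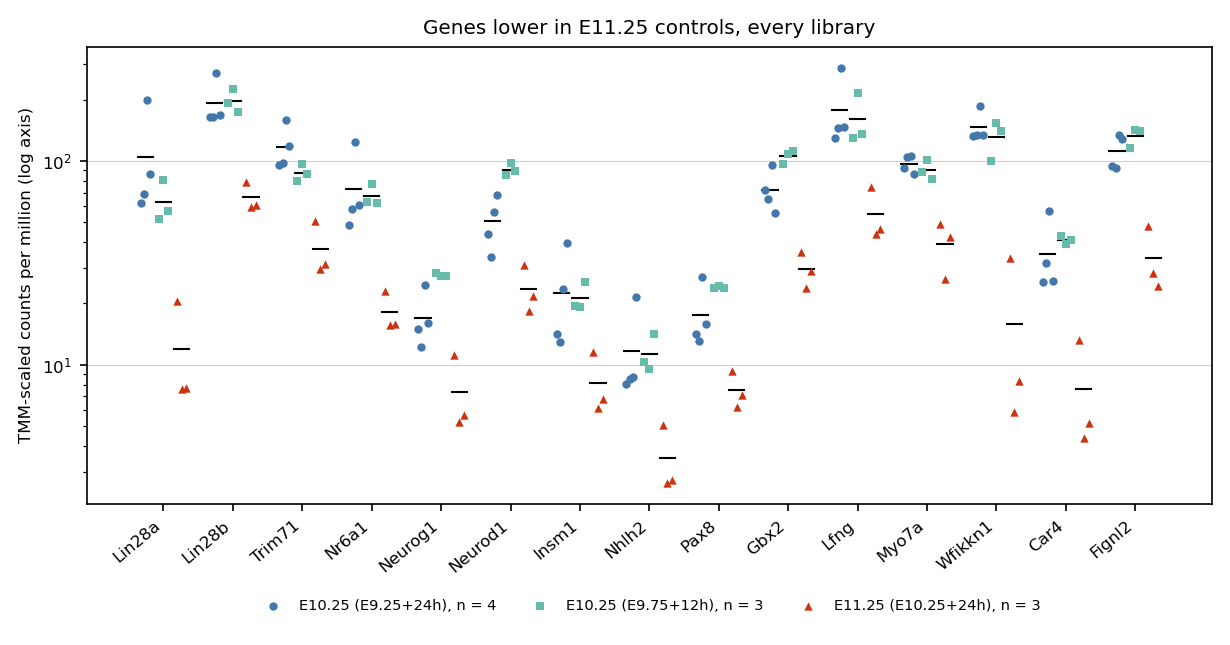
TMM-scaled CPM (log axis) of 15 genes that were lower at E11.25, 1 point per library and a bar at each group's mean. The E11.25 points of each gene lie below all 7 E10.25 points, and of the 3 litters at E11.25, litter 2 has the highest value for each gene shown.

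Within the neuroblast lineage 5 genes were lower at E11.25. Of 20 tested members of a list of otic neuroblast genes, 8 fell against E9.25+24h and 5 against E9.75+12h, and none rose at that threshold, although 1 was higher in each at an unadjusted p under 0.05 (15.6% and 19.2% of all genes were lower). DESeq2 called 13 and 8 lower, and 1 higher against E9.25+24h. The list medians were -0.78 and -0.67. The 5 genes that fell against both were Neurog1, Neurod1, Insm1, Nhlh2 and Ntrk2. Most members passed in neither comparison, and the share against E9.75+12h is close to that of all genes. The receptor genes Gfra1 and Ntrk3 were higher on average, by 0.45 and 0.63 on the log2 scale against E9.25+24h, without passing the test. The counts lean on single libraries: against E9.25+24h 3 fell without litter 3 or without litter 4 of E11.25, and against E9.75+12h 3 fell without litter 4 of E11.25 and 12 without litter 4 of E9.25+24h. Without litters 3 and 4 of E9.25+24h the falls numbered 5 and 12, with 1 and 3 genes higher.

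Neurog1 (ENSMUSG00000048904, chr13:56250478-56252163, minus strand), the bHLH factor that specifies otic neurons, was at 11.19, 5.24 and 5.71 CPM at E11.25. It was at 15, 12.3, 24.8 and 16.03 CPM at E9.25+24h and at 28.4, 27.3 and 27.2 CPM at E9.75+12h. The groups did not overlap, but litter 2 of E11.25 lay close to the lowest E10.25 library. The log2 differences were -1.21 (SE 0.29, FDR = 0.0108) and -1.91 (SE 0.30, FDR = 0.000643), and the first had an FDR of 0.0525 without litter 3 of E11.25 and of 0.0523 without litter 4. Neurod1, which acts downstream of it in delaminating neuroblasts, was at 30.9, 18.3 and 21.8 CPM against 33.8 to 68.4 CPM and 85.6 to 97.3 CPM (log2 -1.10, FDR = 0.00636, and -1.94, FDR = 0.00016). Its first difference was -0.72 without litters 3 and 4 of E9.25+24h.

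Insm1, a zinc-finger factor of newborn neurons, was at 11.6, 6.13 and 6.84 CPM against 13.0 to 39.6 CPM and 19.3 to 25.4 CPM (log2 -1.47 and -1.39). Its FDR without litter 3 of E11.25 was 0.0734 and 0.0671, and without litters 3 and 4 of E9.25+24h its first difference was -0.74 (FDR = 0.0647). Nhlh2, another neuronal bHLH factor, was at 5.10, 2.64 and 2.72 CPM against 8.09 to 21.6 CPM and 9.57 to 14.1 CPM (log2 -1.76 and -1.71). Elavl4, a later neuronal gene, did not pass the test against either group, at 5.15, 4.97 and 5.16 CPM against 6.39 to 25.4 CPM (FDR = 0.0643 and 0.0988). Markers of the hindbrain, the nearest other neural tissue, were low in all groups, with a summed level of 14.8 to 33.5 CPM at E11.25, 8.36 to 47.4 CPM at E9.25+24h and 11.02 to 24.8 CPM at E9.75+12h. Litter 4 of E9.25+24h had the highest hindbrain sum and the highest Insm1, Nhlh2 and Elavl4 of the 10 libraries. Whether hindbrain tissue took part in these values was not tested.

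The extracellular matrix of the inner ear lumen showed the opposite direction. Of 14 tested genes of a list of otolith and tectorial matrix genes, 10 rose against E9.25+24h and 11 against E9.75+12h, where 13.2% and 22.2% of all genes were higher, and 1 (Col11a1) fell in each. The medians were 0.76 and 0.97, and -0.15 between the 2 E10.25 groups. The rises numbered 8 and 10 when litter 3 of E11.25 was left out.

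Oc90 (ENSMUSG00000015001, chr15:65876053-65912397, minus strand), the main protein of the embryonic otolith matrix, was at 2824, 3603 and 4186 CPM at E11.25. It was at 1407, 1574, 650 and 649 CPM at E9.25+24h and at 1151, 783 and 723 CPM at E9.75+12h. Each E11.25 library was above the highest E10.25 library, and litter 2 was the lowest of the 3. The rise was 3.31-fold (log2 1.73, SE 0.32, FDR = 0.00368) and 3.99-fold (log2 2.0, SE 0.35, FDR = 0.0012). Otog and Otogl, which encode otogelins, were at 105 to 148 CPM and 49.2 to 83.7 CPM at E11.25, against at most 74.8 and 39.3 CPM at E10.25. Otoa, for otoancorin, which attaches acellular gels to the epithelium, was at 8.65, 15.8 and 18.6 CPM against 3.03 to 5.59 CPM (log2 1.60 and 1.94). Tecta, for alpha-tectorin, was at 4.65, 8.73 and 10.8 CPM against 1.75 to 3.41 CPM (log2 1.83 and 1.67). Sparc, which binds matrix calcium, was at 721 ± 121 CPM against 313 ± 80.4 and 394 ± 80.6 CPM (SD), and rose against both. It is also made by mesenchyme, whose summed markers were 383 to 952 CPM at E11.25, 91.8 to 1476 CPM at E9.25+24h and 135 to 466 CPM at E9.75+12h. The part of mesenchyme in the rise of Sparc was not tested.

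Genes of the semicircular canals were higher at E11.25. Of 15 tested, 9 rose against E9.25+24h and 7 against E9.75+12h, and none fell, also at an unadjusted p under 0.05 and in DESeq2 (13.2% and 22.2% of all genes were higher). The medians were 0.57 and 0.46, and without litter 4 of E11.25 the counts were 5 and 5. Ntn1 (ENSMUSG00000020902, chr11:68209364-68400823, minus strand) encodes netrin 1, which is needed where the canal pouch walls fuse. It was at 65.1, 107 and 105 CPM at E11.25. It was at 18.3, 19.2, 8.205 and 13.3 CPM at E9.25+24h and at 18.3, 9.12 and 17.9 CPM at E9.75+12h, so that the lowest E11.25 library was well above every E10.25 library. The rise was 6.27-fold (log2 2.65, SE 0.31, FDR = 0.000862) and 6.12-fold (log2 2.61, SE 0.34, FDR = 0.000193).

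Nr4a3 (ENSMUSG00000028341, chr4:48045153-48086447, plus strand), an orphan nuclear receptor required for growth of the canals, was nearly silent at E10.25. It was at 0.71, 0.93, 0.10 and 0.09 CPM at E9.25+24h, at 1.80, 1.40 and 1.19 CPM at E9.75+12h and at 10.7, 23.1 and 28.7 CPM at E11.25. The fitted log2 difference was 5.48 (SE 0.57, FDR = 0.000853) and 3.83 (SE 0.58, FDR = 0.000459), and the size of the first depends on a few counts in litters 3 and 4 of E9.25+24h. Fgf9, an FGF that signals from this epithelium to the mesenchyme around it, was at 54.1, 54.9 and 65.1 CPM against 22.2 to 39.5 CPM and 26.9 to 36.7 CPM (log2 0.81 and 0.86). Bmp4, a ligand of the developing canals and cristae, stayed within the spread at 38.2, 39.2 and 41.5 CPM in the means of E11.25, E9.25+24h and E9.75+12h (FDR = 0.854 and 0.516).

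Among 9 tested genes of the endolymphatic duct and sac, 6 rose against E9.25+24h and 5 against E9.75+12h (13.2% and 22.2% of all genes were higher), and Gbx2 fell in both. The medians were 1.07 and 0.98, and 0.40 between the 2 E10.25 groups. There 3 genes were higher in E9.75+12h and none lower, where 36.7% of all genes differed. Without litter 3 of E11.25 the rises numbered 3 and 3, without litter 4 they numbered 2 and 1, and without litter 2 they numbered 3 and 6. They numbered 3 and 5 without litters 3 and 4 of E9.25+24h. Foxi1 (ENSMUSG00000047861, chr11:34204338-34208089, minus strand), the forkhead factor of the ion-transporting cells of the sac, was at 7.196, 13.2 and 18.8 CPM at E11.25. It was at 1.80, 2.39, 0.57 and 1.06 CPM at E9.25+24h and at 5.35, 1.62 and 3.69 CPM at E9.75+12h. The E11.25 libraries were higher throughout, though litter 2 was near litter 1 of E9.75+12h. The differences were log2 3.16 (SE 0.50, FDR = 0.00196) and 1.87 (SE 0.52, FDR = 0.0139), and without litter 4 of E11.25 the FDR of the second was 0.0595. Its known targets gave unequal results: the proton pump subunit gene Atp6v0a4 rose against both (log2 0.82 and 0.98), while Slc26a4, the pendrin gene, was at 0.85, 1.59 and 1.09 CPM and passed only against E9.75+12h (FDR = 0.0581 and 0.0393). Coch, for the matrix protein cochlin, was at 2.05, 3.14 and 2.54 CPM against 0.34 to 1.29 CPM (log2 1.24 and 1.56), and its FDR against E9.25+24h was 0.112 without litter 3 of E11.25 and 0.0698 without litter 4. Gbx2, a homeobox gene that marks the dorsal otocyst before the duct forms, was at 35.6, 23.7 and 28.9 CPM against 55.8 to 95.8 CPM and 96.4 to 111.6 CPM (log2 -1.30 and -1.84).

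**Figure D4:**
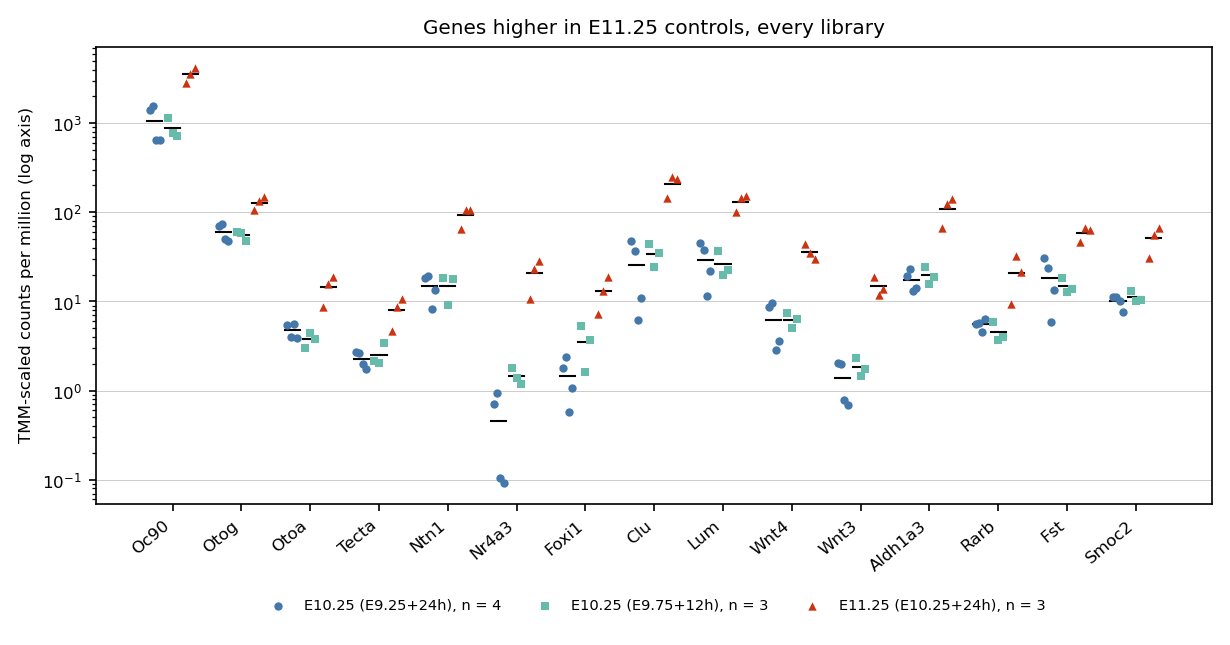
TMM-scaled CPM (log axis) of 15 genes that were higher at E11.25, 1 point per library and a bar at each group's mean. Every E11.25 point lies above all 7 E10.25 points of the same gene, with the widest gap at Nr4a3 (10.7 CPM or more against 1.80 CPM or less).

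Signalling genes are given by pathway, with ligands, inhibitors and targets apart. In the BMP list, 11 of 18 genes rose against E9.25+24h and 9 against E9.75+12h (13.2% and 22.2% of all genes were higher), and Chrdl1 fell against E9.75+12h. Against E9.25+24h the rises numbered 7 without litter 3 of E11.25 and 6 without litter 4. Large rises included the genes of secreted antagonists and of a ligand. Bmper, Smad6 and Smad7, which encode modulators of the pathway, also rose against both, by less than 2-fold. Fst, for follistatin, was at 46.3, 66.2 and 62.8 CPM against 5.91 to 31.0 CPM and 12.9 to 18.4 CPM (log2 1.65 and 1.96, the first 1.09 without litters 3 and 4 of E9.25+24h). Nog, for noggin, was at 2.40 to 3.65 CPM against 0.37 to 1.54 CPM, and the ligand gene Bmp6 at 2.75 to 5.24 CPM against 0.97 to 2.17 CPM. Without litter 3 of E11.25 the FDR of Nog was 0.0535 and 0.0994, and that of Bmp6 was 0.0132 and 0.0531.

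In the Wnt list, 8 of 20 genes rose and 1 fell against E9.25+24h, and 5 rose and 4 fell against E9.75+12h. The second pair of counts is near the shares of all genes, 22.2% higher and 19.2% lower, and the first is above the 13.2% that were higher. The 2 large rises were the ligand genes Wnt4 and Wnt7a. Wnt4 was at 44.2, 34.7 and 29.8 CPM against 2.87 to 9.72 CPM and 5.04 to 7.45 CPM (log2 2.54, SE 0.36, FDR = 0.00138, and 2.53, SE 0.40, FDR = 0.000675). Wnt7a was at 4.80, 1.51 and 1.81 CPM against 0.41 to 0.81 CPM (log2 2.11 and 1.86, the second 1.17 without litter 2 of E11.25). The ligand gene Wnt3 (ENSMUSG00000000125, chr11:103774150-103817957, plus strand, outside the list and among the largest rises of all genes) was at 18.7, 11.7 and 13.9 CPM against 0.69 to 2.04 CPM and 1.46 to 2.31 CPM (log2 3.41, FDR = 0.000853, and 3.0, FDR = 0.000224). For Wnt4, Wnt3 and Wnt7a litter 2 was the highest of the E11.25 libraries, where it was the lowest for 195 of the 277 large rises. It was also the library with the highest summed surface ectoderm markers, at 515 CPM against 396 and 359 CPM in litters 3 and 4, and the part of surface ectoderm was not tested. Axin2, a general target of the pathway, was at 92.3 CPM on average at E11.25 and 92.8 CPM at E9.25+24h, and was lower than in E9.75+12h (132 CPM).

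Of 15 retinoic acid genes, 7 rose and 3 fell against E9.25+24h, where 13.2% and 15.6% of all genes did. Against E9.75+12h 4 rose and 3 fell, which is near the 22.2% and 19.2% of all genes. Aldh1a3 (ENSMUSG00000015134, chr7:66390890-66427517, minus strand), which makes retinoic acid, was at 66.7, 124 and 140 CPM at E11.25. It was at 13.2 to 23.4 CPM at E9.25+24h and at 15.8 to 24.4 CPM at E9.75+12h, far below. The rise was 6.28-fold (log2 2.65, SE 0.27, FDR = 0.000853) and 5.62-fold (log2 2.49, SE 0.30, FDR = 0.00011). Rarb, a receptor gene that is itself induced by retinoic acid, was at 9.44, 31.9 and 21.5 CPM against 3.69 to 6.31 CPM (log2 1.92 and 2.22). Dhrs3, for a retinaldehyde reductase that is likewise induced by it, was at 9.94, 26.2 and 21.4 CPM against 1.83 to 6.89 CPM (log2 2.64 and 1.66). The binding protein gene Crabp2 fell from 430 ± 66.4 and 478 ± 19.9 to 275 ± 43.4 CPM (SD). Crabp1 passed the main test (log2 -1.22 and -1.18), but its FDR was over 0.05 in both comparisons without litter 3, or without litter 4, of E11.25. Without litters 3 and 4 of E9.25+24h its first difference was -0.63.

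In the Notch list, 5 of 15 genes rose and 4 fell against E9.25+24h, and 4 rose and 3 fell against E9.75+12h. The second pair is near the shares of all genes (22.2% and 19.2%), and the first is above them (13.2% and 15.6%). Against E9.25+24h 2 rose and 2 fell without litter 3 of E11.25, 1 rose without litter 4 and 3 rose without litter 2. Lfng and Jag2 made large changes, in opposite directions. Lfng, a glycosyltransferase that modifies Notch and marks the neurosensory domain, was at 74.9, 43.7 and 46.4 CPM against 129 to 286 CPM (log2 -1.69, FDR = 0.00389, and -1.55, FDR = 0.00358). Jag2, a Notch ligand of later hair cells, was at 27.98, 23.6 and 11.6 CPM against 2.47 to 8.19 CPM (log2 1.58, FDR = 0.00436, and 2.26, FDR = 0.000502). Sox2, the prosensory factor, was 84.1, 93.0 and 114 CPM in the means of E11.25, E9.25+24h and E9.75+12h, and passed the test in neither comparison (FDR = 0.535 and 0.0579). Among 14 prosensory genes, 5 rose and 2 fell against E9.25+24h, and 4 rose and 4 fell against E9.75+12h. Against both groups 4 rose and 1 (Lfng) fell, where 6.63% and 7.65% of all genes did. Without litter 2, or without litter 4, of E11.25 the rises numbered 3 and 2 in the single comparisons. The 4 include Isl1, a LIM homeobox gene of the sensory lineage, at 67.1 CPM on average against 39.0 and 41.8 CPM.

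For FGF signalling no readout gene passed in the same direction against both groups. Of 14 readout genes such as Dusp6, Spry2 and Etv4, 5 rose against E9.25+24h, and 2 rose and 2 fell against E9.75+12h, where 13.2% and 22.2% of all genes were higher. In the same order, 15.6% and 19.2% of all genes were lower. Against E9.25+24h 2 rose without litter 2 of E11.25 and 1 with litter 1 kept. Against E9.75+12h 4 rose without litter 4 of E9.25+24h, and 0 without litter 4 of E11.25 or litter 2 of E9.75+12h. Dusp6 was at 93.6, 79.6 and 82.1 CPM in the means of E11.25, E9.25+24h and E9.75+12h, with an FDR of 0.114 and 0.193. Of 12 ligand and receptor genes, 2 rose and 2 fell in each comparison (28.8% and 41.5% of all genes differed), with Fgf9 higher and Fgf15 lower against both. Without litter 3 of E11.25, 1 rose in each comparison, 1 fell against E9.75+12h, and the FDR of Fgf15 was 0.101 and 0.0929. Its second difference was -0.62, against -0.97, without litter 2 of E9.75+12h. Of 9 Hedgehog targets, 3 rose against E9.25+24h, and 2 rose and 1 fell against E9.75+12h, where 13.2% and 22.2% of all genes were higher. Without litter 3 of E11.25 the rises numbered 1 and 0.

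For otic identity genes and regional factors the 2 E10.25 groups themselves differed: of 14 identity, 14 dorsal and 16 ventral genes, 10, 9 and 11 were higher in E9.75+12h than in E9.25+24h (36.7% of all genes differed), and none was lower. Of 14 otic identity genes, 5 rose and 3 fell against E9.25+24h, while 1 rose and 9 fell against E9.75+12h. Of all genes, 13.2% rose and 15.6% fell in the first comparison, and 22.2% rose and 19.2% fell in the second. The list median changed sign, at 0.18 and -0.64, and was 0.64 between the E10.25 groups. Pax2 is an example, at 158 ± 12.2 CPM at E11.25, 118 ± 7.84 CPM at E9.25+24h and 292 ± 27.5 CPM at E9.75+12h. Dlx5, a dorsal factor, was at 78.6 ± 10.8, 70.8 ± 14.6 and 194 ± 27.0 CPM in the same order. For these genes E11.25 lay between or beside the earlier groups, and no direction with stage can be given. Exceptions that fell against both included Pax8, an early otic factor, at 9.34, 6.25 and 7.11 CPM against 13.0 to 27.0 CPM (log2 -1.21 and -1.67), and Eya1 and Gbx2. Exceptions that rose against both were Oc90, Gata2, Hmx2 and Pou3f3. Gata2, which acts in canal growth, was at 133, 146 and 185 CPM against 39.1 to 107 CPM (log2 1.46 and 0.64). Pou3f3 was at 57.5, 78.7 and 77.9 CPM against 14.3 to 41.6 CPM, and its FDR against E9.75+12h was 0.0705 without litter 3 of E11.25 and 0.068 without litter 4.

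Cell cycle genes were lower at E11.25 by small amounts. Of 20 S phase genes, 16 fell and none rose (also at an unadjusted p under 0.05 and in DESeq2) against E9.25+24h, and 11 fell and 2 rose against E9.75+12h, where 15.6% and 19.2% of all genes were lower. Of 20 G2 and M phase genes, 15 fell and none rose, and 12 fell and 2 rose. The medians were -0.34 and -0.23 for S phase and -0.33 and -0.30 for G2 and M phase, which is under 1.3-fold. Between the 2 E10.25 groups, of the same age, both medians were -0.18 (E9.75+12h minus E9.25+24h). There 9 S phase genes were lower in E9.75+12h and 2 higher. Of the G2 and M phase genes 8 were lower and 5 higher, where 36.7% of all genes differed. Mki67, a marker of cycling cells, was at 596 ± 40.9 CPM against 795 ± 40.5 and 917 ± 45.8 CPM (SD). Cenpe, for a kinetochore motor, was at 152, 158 and 171 CPM against 210 to 257 CPM (log2 -0.63 and -0.48). Both groups of E10.25 libraries were above all E11.25 libraries for both genes. The number of falls dropped without litter 3 of E11.25, to 8 and 6 for S phase and to 9 and 11 for G2 and M phase, and without litter 4 it was 8 and 6 for S phase. Without litters 3 and 4 of E9.25+24h the first counts were 7 and 9. Ccnd1, for a D cyclin, fell from 1191 ± 79.9 and 1198 ± 14.8 to 924 ± 112 CPM (SD), and the inhibitor gene Cdkn1c was also lower than in both groups (log2 -0.26 and -0.89), with an FDR against E9.25+24h of 0.0572 without litter 3 of E11.25 and 0.0504 without litter 4. The other lists gave few genes called against both: Cldn9 of 19 adhesion genes and Aldoc of 18 glycolysis genes rose, and Espn and Myo7a of 4 hair cell genes fell. Of all genes, 6.63% rose and 7.65% fell against both. Of the adhesion genes 6 rose against E9.25+24h, and 2 rose and 2 fell against E9.75+12h. Of the glycolysis genes 1 rose and 2 fell, and 8 rose and 3 fell, in the same order (13.2% and 22.2% of all genes were higher). Myo7a, which encodes a myosin of hair cell stereocilia, was at 49.3, 26.3 and 42.1 CPM against 81.6 to 106 CPM (log2 -1.31 and -1.21).

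**Figure D5:**
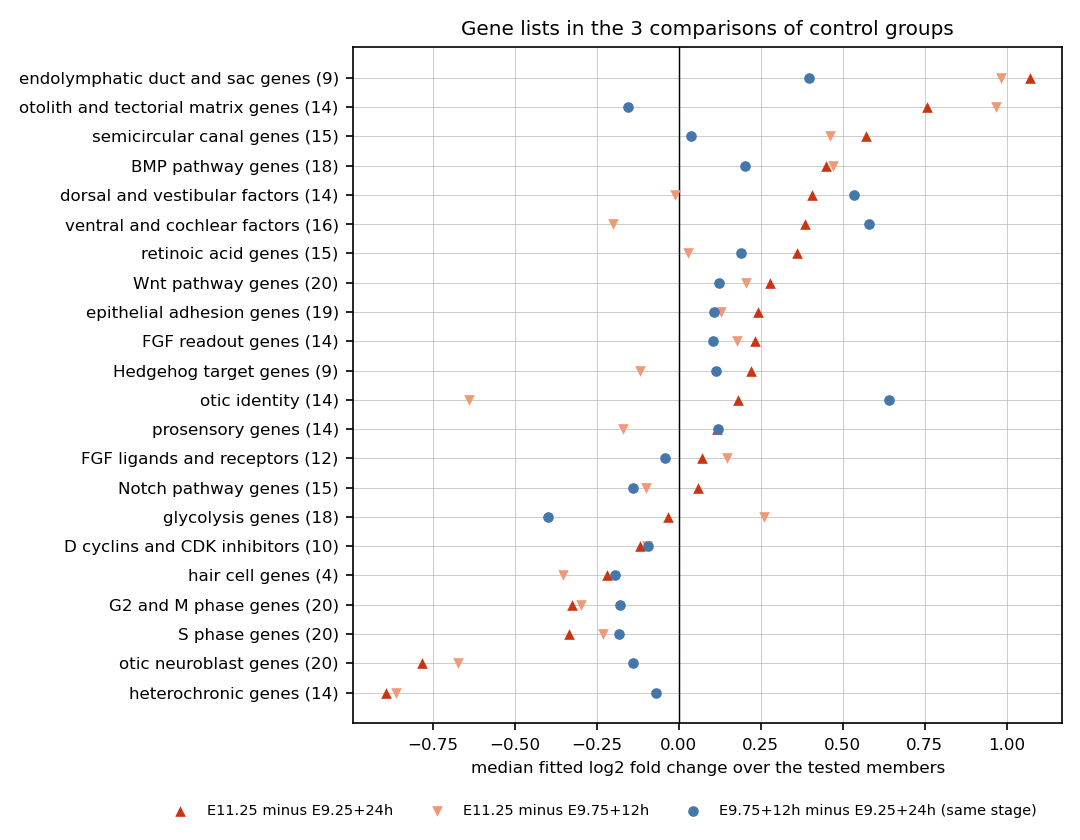
Median fitted log2 fold change over the tested members of each gene list (number in brackets) in the 2 stage comparisons (triangles) and between the 2 E10.25 groups (circles). Heterochronic and neuroblast genes lie at or below -0.67 in both stage comparisons, and endolymphatic and matrix genes at or above 0.75, while otic identity, dorsal and ventral factors have medians of 0.53 to 0.64 between the same-stage groups.

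The largest rises outside these lists were ranked by the smaller of the 2 fold changes among protein-coding genes whose groups did not overlap. Sall3, a zinc-finger factor, was at 31.3, 63.7 and 75.5 CPM against 1.83 to 7.57 CPM (12.3-fold and 9.26-fold). Clu, for the secreted chaperone clusterin, was at 143, 250 and 238 CPM against 6.22 to 48.2 CPM and 24.2 to 44.5 CPM (8.24-fold and 6.11-fold). Smoc2, a matrix protein that modulates growth factors, was at 31.1, 55.3 and 66.6 CPM against 7.56 to 13.1 CPM (log2 2.34, SE 0.23, and 2.19, SE 0.26). Nos2, for inducible nitric oxide synthase, was at 7.196, 8.54 and 10.15 CPM against 0.99 to 2.37 CPM. The matrix gene Vit and the synaptic adhesion gene Lrrtm4 rose by at least 4.2-fold against both. Reln, for reelin, was at 3.25, 8.19 and 16.3 CPM against 0.92 to 3.08 CPM, and its calls were lost without litter 4 of E11.25 (FDR = 0.0812 and 0.0504).

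Lum, for the small proteoglycan lumican, was at 100, 145 and 151 CPM at E11.25, at 44.7, 38.0, 11.6 and 22.0 CPM at E9.25+24h and at 36.7, 19.9 and 22.7 CPM at E9.75+12h (log2 2.18 and 2.32). Dcn, for the related decorin, was at 47.6, 58.4 and 54.6 CPM against 3.97 to 18.1 CPM and 12.1 to 24.2 CPM (log2 2.25 and 1.65), and its FDR against E9.75+12h was 0.0537 without litter 3 of E11.25. Both are known from connective tissue, and Dcn was on the mesenchyme list. Of the other 13 tested mesenchyme markers none rose against both groups, but the list median was 0.40 against E9.25+24h and 1.29 against E9.75+12h. With litters 3 and 4 of E9.25+24h left out, the medians were 1.285 and 1.253. In that fit 5 of the 14 markers were higher and 1 was lower than in E9.75+12h. In the library with the highest mesenchyme sum, litter 4 of E9.25+24h, Lum was at 22.0 CPM and Dcn at 5.48 CPM, below litters 1 and 2 of the same group. The part of mesenchyme in the rises of Lum and Dcn was not tested.

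The largest falls held, beside Lin28a, Nr6a1 and Nhlh2, the following genes. Wfikkn1, for a secreted protein that binds growth factors of the myostatin kind, was at 33.4, 5.86 and 8.34 CPM against 99.7 to 187 CPM (log2 -3.23, SE 0.50, FDR = 0.00181, and -3.07, SE 0.51, FDR = 0.000822). Car4, for a membrane-bound carbonic anhydrase, was at 13.2, 4.39 and 5.21 CPM against 25.5 to 57.0 CPM (log2 -2.21 and -2.45). Evx1, a homeobox gene, was at 1.30, 0.31 and 0.32 CPM against 2.55 to 11.1 CPM (log2 -3.28 and -2.27). Fignl2, which has 3 let-7 seed matches, was at 47.9, 28.2 and 24.3 CPM against 91.8 to 141 CPM (log2 -1.75 and -1.99). Srrm4, a splicing factor of neurons, was at 5.10, 2.83 and 4.08 CPM against 9.09 to 21.3 CPM (log2 -1.72 and -1.69). Neb, Sstr2, Krt23 and Psd2 fell by 1.79 or more on the log2 scale against both.

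Of 8 tested surface ectoderm markers, 6 rose against E9.25+24h and 4 against E9.75+12h (13.2% and 22.2% of all genes were higher), with medians of 1.75 and 1.06. Grhl3, an epidermal factor, was at 10.19, 10.7 and 0.23 CPM in E11.25 litters 2, 3 and 4, and Krt15, a basal keratin, at 29.7, 4.58 and 1.36 CPM. The summed level of the list was 515, 396 and 359 CPM in these litters and 244 to 366 CPM at E10.25, with most of it from Esrp1, at 191 to 289 CPM in each of the 10 libraries. The part of surface ectoderm in the results above was not tested. Of 7 tested neural crest and glia markers, 2 rose and 1 fell against E9.25+24h, and 2 rose and 2 fell against E9.75+12h (28.8% and 41.5% of all genes differed). Without litter 2 of E11.25, 1 rose and 1 fell, and 1 rose and 3 fell. Among the markers of this list, Tfap2b was at 68 CPM in litter 2 of E11.25 but at 0 and 0.18 CPM in litters 3 and 4. Blood, endothelium, macrophage and hindbrain markers gave 0 called genes in both stage comparisons, in edgeR and in DESeq2, over 10, 11, 7 and 5 tested genes. Their list medians were 0.09, -0.94, -0.02 and -0.26 against E9.25+24h, and 0.46, 0.49, 0.90 and 0.16 against E9.75+12h. Since the levels of these markers vary widely within groups, 0 calls do not show equal tissue content. At an unadjusted p under 0.05, 1 blood gene was higher against E9.25+24h and none of the others differed. With litters 3 and 4 of E9.25+24h left out of the fit, 1 endothelium and 2 hindbrain genes were higher than in E9.75+12h. Without litter 4 alone, 2 blood genes and 1 hindbrain gene were higher than in E9.25+24h. Without litter 2 of E11.25, 1 hindbrain gene was lower in both comparisons.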

How the data were processed

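The values used are deposited raw counts for 15736 Ensembl genes, none with a total under 100, made by the authors from stranded, oligo(dT)-selected RNA libraries, per the labels' protocols. Reads were aligned with Novoalign 2.08.03 to mm10, per the submitters' processing notes. The counting step is not given in the sources used here. Columns were joined to samples by the library numbers in the titles, and 2 columns matched no sample and were not used. Symbols came from GENCODE M21 (15522 genes).

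The 10 control libraries were fitted together in edgeR 4.0.16 (R 4.3.3) with 3 group means: filterByExpr, TMM, estimateDisp, glmQLFit and glmQLFTest. FDR is the Benjamini-Hochberg adjusted p over all 15322 genes tested. CPM values are TMM-scaled, and per-gene lengths were not used, so levels are not compared between genes. Fitted fold changes understate the change of genes near 0. The fit was tested on simulated data. Replicates were compared in 12 pairs by a chi-square test of their counts. The ratio of chi-square to its degrees of freedom lay between 6.15 and 30.3, so no pair was a duplicate.

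Libraries, gene lists and alternatives were chosen with earlier results of these data known, and those results give no independent support. Named are, per list, at most 4 genes with a large change against both groups, or else 2 called against both. To these come the 12 largest protein-coding rises and falls whose mean log2 CPM reached 1, with no overlap between stages. Other genes named as examples of a list were picked after their values were seen. Pools come from separate females. Alternatives were median-of-ratios size factors, DESeq2 1.42.0, no filter or a mean CPM of at least 1, a robust fit, the compared groups alone, litter 1 kept, a test against a 2-fold change, a log2 threshold of 2, each library left out, and 2 added after seeing the data: litters 3 and 4 of E9.25+24h left out, and protein-coding genes alone. A few genes that the rule names, and a sequence window, are not reported here.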

Additional observations from a re-analysis of the deposited data

Results flagged for a closer look

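In the 4 E9.25+24h libraries, 7 of the 62 named genes had a library far from the other 3, where chance gives about 1 in 20. In 6 of them it was litter 3: Lin28b at 270.6 CPM, Nr6a1 at 123.7 CPM, Wfikkn1 at 186.9 CPM, Lfng at 286.3 CPM, Krt23 at 11.97 CPM and Fgf15 at 5.75 CPM, each the highest of the group. Litter 4 had the highest Nhlh2, at 21.6 CPM. These genes share a library and are not independent of each other. Litter 3 had the lowest mesenchyme sum of the 10 libraries, 91.8 CPM, and litter 4 the highest, 1476 CPM, and the part of tissue content in these values was not tested.

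The control pool of litter 1 at E10.25+24h, which is in no comparison of the report, had 15754 Ighg1 counts, where the controls at E10.25 had at most 36.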

How the results depend on the processing

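Leaving out 1 library at a time gave 2293 to 4428 genes against E9.25+24h, 4807 to 6796 against E9.75+12h, 4756 to 5518 between the E10.25 groups and 229 to 430 large changes. The lowest count against E9.25+24h and of large changes came without litter 3 of E11.25. Without its litter 4 the count against E9.25+24h was 2469. With litters 3 and 4 of E9.25+24h left out it was 2557. The test against a 2-fold change called 5 genes against E9.25+24h and 130 against E9.75+12h, and 5 genes against both. A log2 threshold of 2 gave 71 large changes. With litter 1 of E11.25 kept under its label there were 524. The other settings moved these counts by less than 1.5 times: size factors gave 383 large changes, DESeq2 379, the robust fit 370, a mean CPM of at least 1 gave 333, and protein-coding genes alone 354.

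The test against a 2-fold change was run over all genes and called only 5 against both groups, so most of the 62 named genes did not pass it. Its results were not listed gene by gene. In the other alternatives none reversed, 49 kept an FDR under 0.05 in each and 13 lost it in at least 1, among them Aldoc, Bmp6, Cdkn1c, Coch, Crabp1, Fgf15, Foxi1, Insm1, Neurog1, Nog, Pou3f3 and Reln. The cause was not tested. Higher calls made up 53.6% of those against E9.75+12h, and 47.3% with size factors. Another scaling moved the median of all genes by under 0.1 (log2). No paired analysis was possible because the control groups come from different litters.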
